A study of Drosophila melanogaster with 2 samples.

Results

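Binding of the zinc finger factor Glass was described at 8 genes of the Hippo growth control pathway: hpo, sav, wts, mats, kibra, ex, Mer and yki. They are 8 of the 13945 protein-coding genes on the 6 large chromosome arms. They were named for their role in the pathway, with earlier results of these data known. A gene was taken to hold every peak whose summit lay in its annotated span or within 1 kb of it. The material was whole Drosophila melanogaster pupae of 24 hours, of both sexes pooled, from a transgenic line that stably expresses Glass with GFP at its C terminus. All chromatin came from that line, was sonicated to 200 to 800 bp, and formed 1 group of 2 biological replicates, with no other genotype, age or treatment. One label calls both samples input controls, but the antibody field names gl and the lists are peak calls, so they were treated as ChIP. Because whole animals were used, a peak's height cannot separate the share of cells that hold Glass from the amount bound in each. The lists hold no expression data, so neither the tag nor the tissue could be checked in them.

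In the Hippo pathway the kinase Hippo (gene hpo), with the scaffold Salvador (sav), activates the kinase Warts (wts), which acts with its cofactor Mats (mats). Warts phosphorylates the coactivator Yorkie (yki) and so keeps it out of the nucleus, where Yorkie otherwise works with the DNA-binding protein Scalloped on genes of growth and survival. Kibra, Expanded (ex) and Merlin (Mer) act upstream at the cell cortex, and their genes are also known as targets of Yorkie, which closes a feedback loop. In the retina the pathway limits tissue growth, and in R8 photoreceptors wts and melt act in opposition to set which rhodopsin is made. Glass is required for photoreceptors to develop.

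Of the 8 genes, 5 held a summit of the optimal list, which is the set of 4809 peaks that the authors kept after testing reproducibility between replicates. All of the upstream genes (kibra, ex and Mer), 1 of the 4 genes of the kinase core (wts) and yki held a summit, and hpo, sav and mats held none. Over all protein-coding genes the share with a summit was 23.1%. The 5 genes held 17 summits in all, of which 7 were at ex, 4 at kibra, 4 at wts, 1 at Mer and 1 at yki. Per length of extended span this was 1.87 summits per 10 kb, beside 0.445 over all protein-coding genes. No test was made of these counts, since there is 1 group and the genes were listed with earlier results of these data known.

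Longer genes more often held a summit, among these genes and among all. The extended spans of hpo, sav, mats and yki were under 5 kb, a class in which 14.4% of 8625 genes held a summit, and 1 of these 4 did. Mer was in the class of 5 to 10 kb (27.3% of 2995 genes), wts and ex in that of 10 to 20 kb (44.9% of 1182 genes) and kibra in that of 20 to 30 kb (53.9% of 427 genes). Summed over the 8 genes, these class shares come to 2.29 genes, beside the 5 that held a summit. The density of summits over all genes of a class was from 0.337 to 0.585 per 10 kb. At the 5 genes it was 3.59 per 10 kb at ex, 2.22 at yki, 2.11 at wts, 1.72 at Mer and 1.40 at kibra. These values cannot be read against the classes, which include genes without a summit: at the short genes Mer and yki a lone summit is enough to give such a density.

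**Figure D1:**
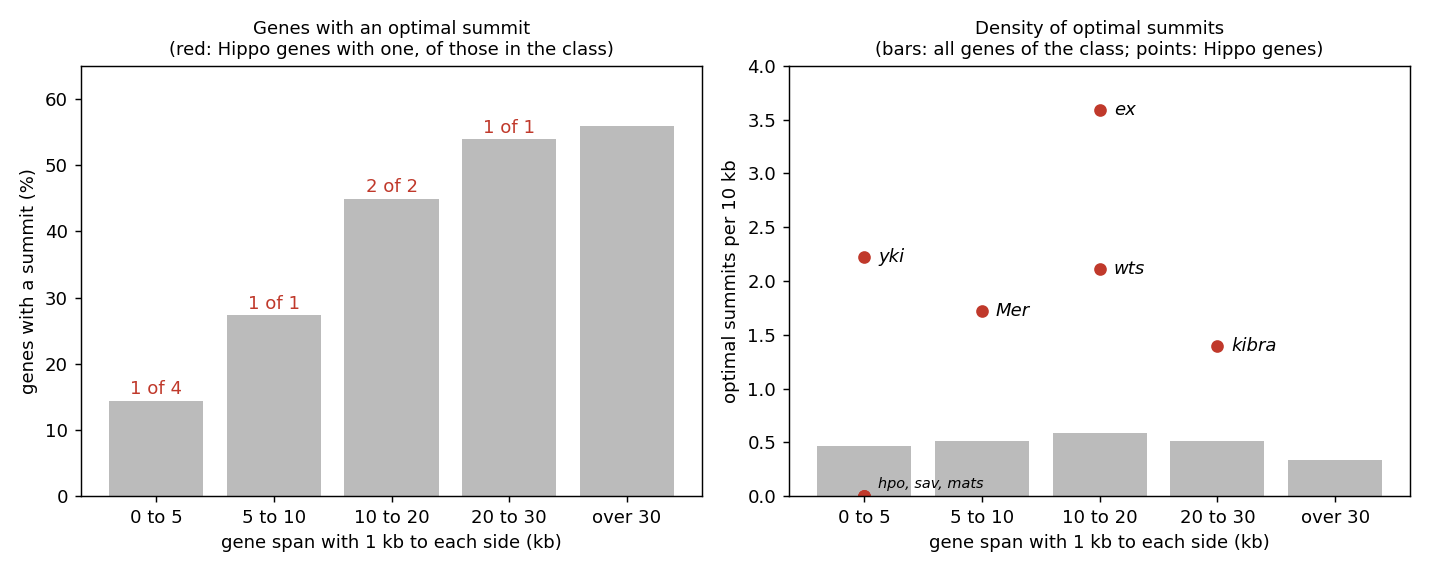
Left, the percentage of protein-coding genes with an optimal summit by length of the span with 1 kb to each side (grey bars), with the Hippo genes that held a summit written in red (1 of 4, 1 of 1, 2 of 2 and 1 of 1). Right, optimal summits per 10 kb of extended span in each class (grey bars) and at each Hippo gene (red points); ex is highest at 3.59, and hpo, sav and mats lie at 0. The bars include genes without a summit, so the height of a point above its bar is no comparison for a gene that holds one.

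The gene ex (FBgn0004583, 2L 431227 to 448701, plus strand) encodes Expanded, a FERM domain protein that recruits the kinase core to the apical membrane. In the optimal list it held the most and the highest peaks of the 8 genes. With all entries kibra had more, at 19 beside 14 at ex in the pooled list. It had 24 beside 9 in replicate 1 and 23 beside 13 in replicate 2. The gene ex held 7 optimal summits, with an overlapping pair among them. In all, 74 of 13945 genes (0.531%) held 7 or more, and in its length class 3 of 1182 did, the others being Diap1 and whd. At ex fewer summits were among the 4809 strongest entries of either replicate, where these shares were not counted. Optimal peaks covered 1693 bp (8.69%) of its extended span. The sequences at its 2 highest summits, in intron 3 and just upstream of the transcription start site (TSS), are shown with 50 bp to each side, read from the RefSeq assembly of dm6, as are all sequences here. Neither holds any of the motifs searched for, so nothing is in capitals.
ex intron 3, chr2L:442055-442155, plus strand: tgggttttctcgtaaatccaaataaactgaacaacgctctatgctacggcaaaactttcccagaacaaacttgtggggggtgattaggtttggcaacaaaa
ex upstream of the TSS, chr2L:431017-431117, plus strand: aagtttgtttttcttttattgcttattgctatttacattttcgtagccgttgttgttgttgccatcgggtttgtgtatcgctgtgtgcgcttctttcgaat

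The highest peak of ex, in intron 3 with its summit at 442105 and 10878 bp from the TSS, had the authors' signal value of 575.4 in the optimal list (rank 345 of 4809). The nearest TSS of a protein-coding gene was that of crq, at 9197 bp, and not that of ex. The signal value of this peak was 310.1 in replicate 1 (rank 437 of 30000 entries) and 263.4 in replicate 2 (rank 328). Ranks, rather than signal values, are compared between lists, since the scale of each list is its own. This peak was among the strongest of both lists, and its rank was similar in both. Of the 3224 protein-coding genes with an optimal summit, 396 (12.3%) had a stronger peak. These genes were not matched with ex for number of summits.

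The promoter of ex held 2 further summits. That at 431067, 160 bp upstream of the TSS, had a signal value of 443.4 (rank 607), with 216.7 in replicate 1 (rank 907) and 227.9 in replicate 2 (rank 436). The other, at 430229, had 236.6 (rank 1870), with 147.5 in replicate 1 (rank 1757) and 96.7 in replicate 2 (rank 2252). It lay 998 bp from the TSS, just inside the limit of 1 kb, and the matching entry of replicate 1 lay just outside it at 1002 bp. A still further peak outside the limit, 3770 bp upstream of the TSS at 427457, had a signal value of 505.0 (rank 467), and the nearest TSS to it was that of ex.

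The remaining 4 summits of ex lay in introns. At 439537, in intron 3 and 2 bp from the TSS of the noncoding gene lncRNA:CR43717, the signal value was 265.8 (rank 1558), with 186.4 in replicate 1 (rank 1200) and 90.9 in replicate 2 (rank 2524). At 435607 in intron 1 it was 131.5 (rank 4557), with 70.8 and 58.1 in replicates 1 and 2 (ranks 4992 and 5311), so that neither replicate had it among its 4809 strongest entries. The pair at 441001 (210.2, rank 2231) and 441200 (129.5, rank 4670), also in intron 3, lay 199 bp apart in overlapping peaks. Replicate 1 had 1 entry between them, with a signal value of 163.6 (rank 1502), which matched both. Replicate 2 had an entry at each, with signal values of 43.7 (rank 8100) and 16.2 (rank 29095). This pair was therefore much stronger in replicate 1, and counting overlapping peaks once leaves 16 optimal regions at the 8 genes in place of 17 summits.

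**Figure D2:**
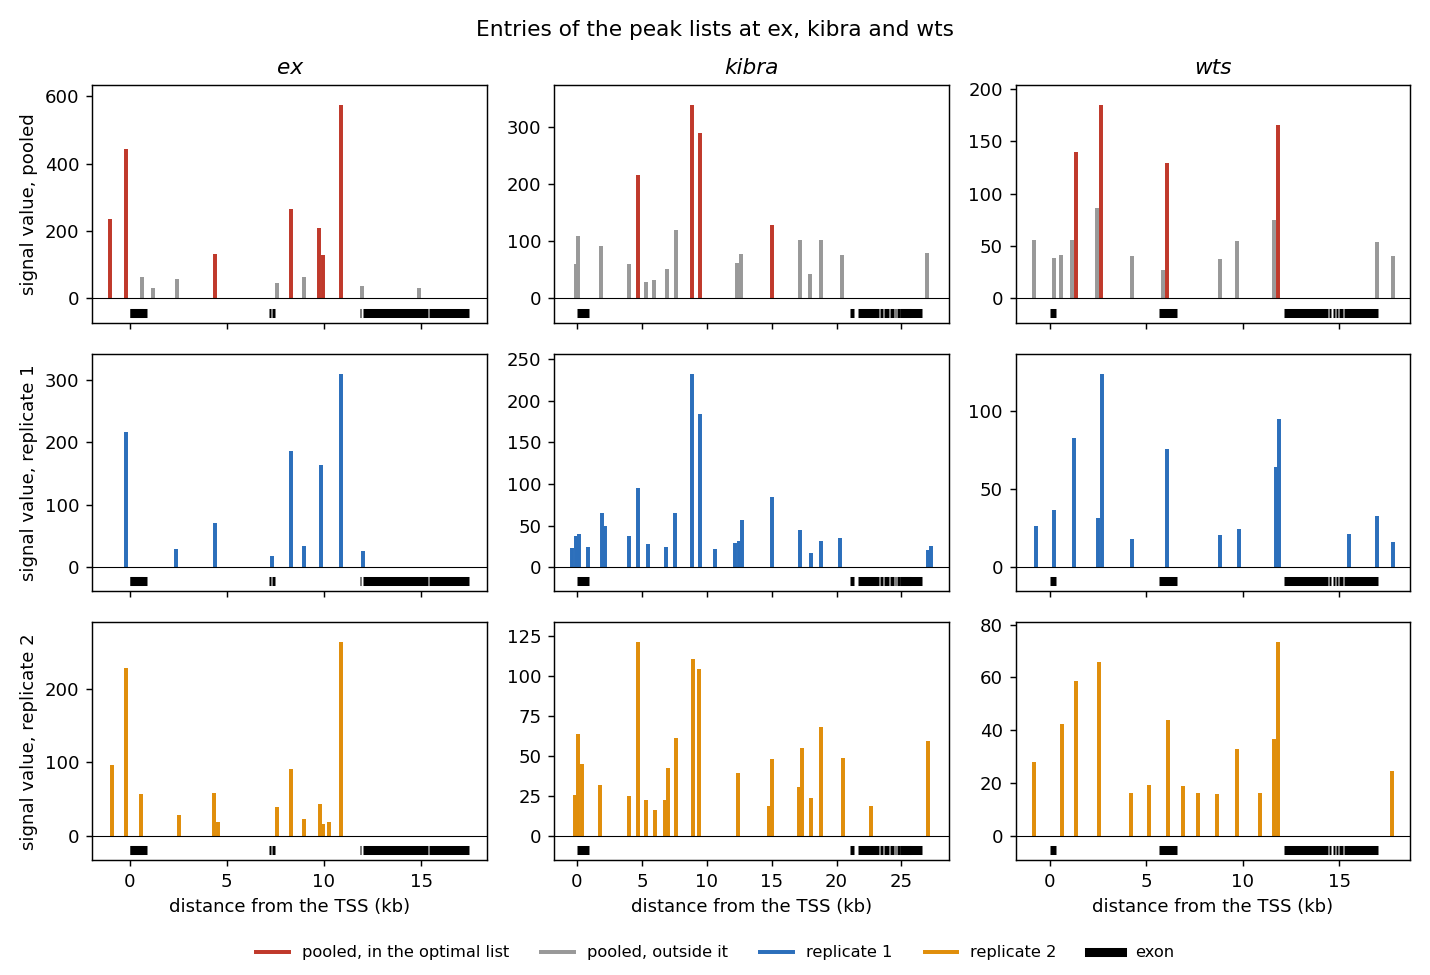
Signal value (vertical axis, own scale in each panel) of every entry at ex, kibra and wts against distance from the TSS in kb, for the pooled list and for each replicate; black bars mark exons of all transcripts. Red lines in the upper row are pooled entries that are in the optimal list (7 at ex, 4 at kibra and 4 at wts), and grey lines are those outside it; the highest lines at ex stand 10.88 kb into the gene and just upstream of the TSS in all 3 rows.

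The gene kibra (FBgn0262127, 3R 14697689 to 14724261, minus strand) encodes a WW domain protein that acts with Expanded and Merlin upstream of the kinases. All of its 4 optimal summits lay in its long intron 1, from 4720 to 14995 bp from the TSS, and none lay within 1 kb of the TSS. The 2 highest lay 600 bp apart, and the windows of 50 bp to each side of them were the only ones at the 8 genes to hold a motif searched for. This was TACTAA, which is in capitals below; it was among the motifs because an earlier analysis had found it more frequent at these summits than beside them.
kibra intron 1, stronger summit, chr3R:14715321-14715421, plus strand: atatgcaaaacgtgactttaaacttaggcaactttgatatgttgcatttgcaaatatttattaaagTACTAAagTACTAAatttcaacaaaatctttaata
kibra intron 1, weaker summit, chr3R:14714721-14714821, plus strand: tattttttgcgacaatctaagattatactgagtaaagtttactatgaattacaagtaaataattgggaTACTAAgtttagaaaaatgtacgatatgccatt

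The stronger of the pair, at 14715371, had a signal value of 339.6 (rank 1023), with 232.7 in replicate 1 (rank 791) and 110.6 in replicate 2 (rank 1779). The weaker, at 14714771, had 290.2 (rank 1353), with 184.2 in replicate 1 (rank 1228) and 104.2 in replicate 2 (rank 1987). The summit at 14719541 had 216.3 (rank 2137), with 95.6 in replicate 1 (rank 3246) and 121.0 in replicate 2 (rank 1495). It was thus the highest of kibra in replicate 2 and the third highest in replicate 1. The summit at 14709266 had the lowest signal value of all 17 summits, 128.7 (rank 4716), with 83.7 in replicate 1 (rank 3943) and 47.9 in replicate 2 (rank 7097). It lay 14995 bp from the TSS of kibra and 11974 bp from that of Meltrin, the nearest of a protein-coding gene.

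Below the optimal list, kibra had 2 pooled entries with a −log10 q value of 4.10, the highest in that list and the one that all optimal peaks share. They lay at 14716642 in intron 1 (signal value 119.9, rank 5251) and at 14724150 in the 5′ UTR, 111 bp from the TSS (110.2, rank 5961). No other of the 8 genes had such an entry. The lowest signal value in the optimal list was 127.0, so these lay close under the limit. The promoter entry was unequal between replicates, with a signal value of 39.6 at 14724112 in replicate 1 (rank 10824) and 63.5 at 14724189 in replicate 2 (rank 4603). At the 3′ end of kibra, the pooled entry at 14697265 (78.7, rank 9365) was counted only because of the extension, and lay 27 bp from the TSS of Meltrin.

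The gene Mer (FBgn0086384, X 19689697 to 19693500, minus strand) encodes Merlin, the fly counterpart of the human tumour suppressor NF2. It held 1 optimal summit, at 19693395 in intron 1 and 105 bp from the TSS. The sequence is shown without the neighbouring exon, as 91 bases of the intron around the summit, and it holds none of the motifs.
Mer intron 1, chrX:19693345-19693435, plus strand: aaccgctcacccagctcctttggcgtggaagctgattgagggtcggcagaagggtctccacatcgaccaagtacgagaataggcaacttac

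The signal value of this peak was 346.7 (rank 979), with 181.9 in replicate 1 (rank 1251) and 157.7 in replicate 2 (rank 918). The summits of the 3 lists lay within 4 bp of each other, and the peak was 192 bp wide. In the optimal list it was the second highest of the 5 genes by their strongest peak, after ex and just above kibra. Of the genes with an optimal summit, 29.0% had a stronger one. By strongest entry, kibra ranked above Mer in replicate 1 (791 beside 1251) and below it in replicate 2 (1495 beside 918). Other entries at Mer were weak: the pooled list had 1 more, 110 bp upstream of the TSS, with a signal value of 41.0 (rank 19931).

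Among the kinase core, only wts (FBgn0011739, 3R 30789625 to 30806619, minus strand), which encodes the kinase that phosphorylates Yorkie, held optimal summits. There were 4, and all were lower than the median of all optimal peaks, 200.4. None lay within 1 kb of the TSS. The sequence at the highest, in intron 1, is shown with 50 bp to each side and holds none of the motifs.
wts intron 1, chr3R:30803882-30803982, plus strand: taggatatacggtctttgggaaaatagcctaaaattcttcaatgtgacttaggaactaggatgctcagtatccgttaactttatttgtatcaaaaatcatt

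This highest summit of wts, at 30803932 and 2687 bp from the TSS, had a signal value of 184.9 (rank 2739). Its matches had 123.8 in replicate 1 (rank 2260) and 65.8 in replicate 2 (rank 4346). The match in replicate 2 lay 127 bp away, nearer to a pooled entry outside the optimal list at 30804140 (86.2, rank 8305). The summit at 30794808 in intron 2 had 165.6 (rank 3255), with 94.9 in replicate 1 (rank 3274). In replicate 2 it had 73.3 (rank 3645), the highest entry of wts there. It lay 11811 bp from the TSS of wts and 11550 bp from that of zfh1, the nearest of a protein-coding gene. Both of these summits had matching entries among the 4809 strongest in both replicates. The summits at 30805243 in intron 1 (139.6, rank 4206) and 30800523 in a 5′ UTR exon (129.3, rank 4679) were among them in replicate 1 alone. There they had signal values of 82.7 (rank 4024) and 75.7 (rank 4583), and in replicate 2 of 58.5 (rank 5255) and 43.9 (rank 8055). Of the genes with an optimal summit, 65.1% had a stronger peak than wts. The next optimal peak upstream (183.4, rank 2784) lay outside the limit, 2141 bp from the TSS of wts and 143 bp from that of cindr.

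The gene hpo (FBgn0261456, 2R 19493996 to 19496856, minus strand) encodes the kinase that gives the pathway its name, and its entries differed between the replicates. In replicate 2 it had 4 entries, the strongest in the 5′ UTR, 14 bp from the TSS at 19496842, with a signal value of 68.0 (rank 4119) and the highest −log10 q of that list, 4.08. In replicate 1 it had no entry at all among 30000. The pooled list had the promoter entry at 19496844 with a signal value of 97.3 (rank 7094) and a −log10 q value of 3.45, outside the optimal list. Thus hpo held a summit among the 4809 strongest entries of replicate 2, as 23.1% of all protein-coding genes did, and not among those of replicate 1, where 22.8% did.

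The other genes of the kinase core had no optimal peak and weak entries in the pooled and replicate lists. The gene sav (FBgn0053193, 3R 23058609 to 23061304, minus strand), the scaffold of Hippo, had 1 entry in each of these 3 lists. That of the pooled list lay 174 bp upstream of its TSS and 15 bp from the TSS of Ublcp1, with a signal value of 44.3 (rank 18374). The matching entry of replicate 1 had 25.2 (rank 18235), and the entry of replicate 2 lay elsewhere, in a coding exon, with 18.0 (rank 25907). The nearest optimal peak (137.0, rank 4309) was 12 bp from the TSS of p53 and outside the limit. The gene mats (FBgn0038965, 3R 22421161 to 22423302, plus strand), the cofactor of Warts, had its strongest pooled entry at 22424163, past its 3′ end and 562 bp from the TSS of pinta, with a signal value of 79.0 (rank 9322). There replicate 1 had 52.8 (rank 7513) and replicate 2 had 32.5 (rank 12246). At the TSS of mats itself the pooled list had an entry 1 bp away, with 71.7 (rank 10455). No entry of sav or mats reached the highest −log10 q of its list.

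The gene yki (FBgn0034970, 2R 24065975 to 24068485, minus strand) encodes the coactivator that the kinases restrain, and held 1 optimal summit. It lay outside the gene at 24068861, 376 bp upstream of the TSS of yki, in the 5′ UTR of the gene Gpat4, which runs the other way, and 104 bp from the TSS of Gpat4. Its position is thus nearer to Gpat4, and which gene it belongs to cannot be told apart from these lists. The signal value was 167.2 (rank 3215), the lowest of the strongest peaks of the 5 genes, and 74.0% of the genes with an optimal summit had a stronger one. Replicate 1 had it at 24068852 with 125.8 (rank 2215). In replicate 2 the nearest entry was 150 bp away, at 24069011 and 39 bp from the TSS of Gpat4, with 55.5 (rank 5685), outside the 4809 strongest of that list.

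**Figure D3:**
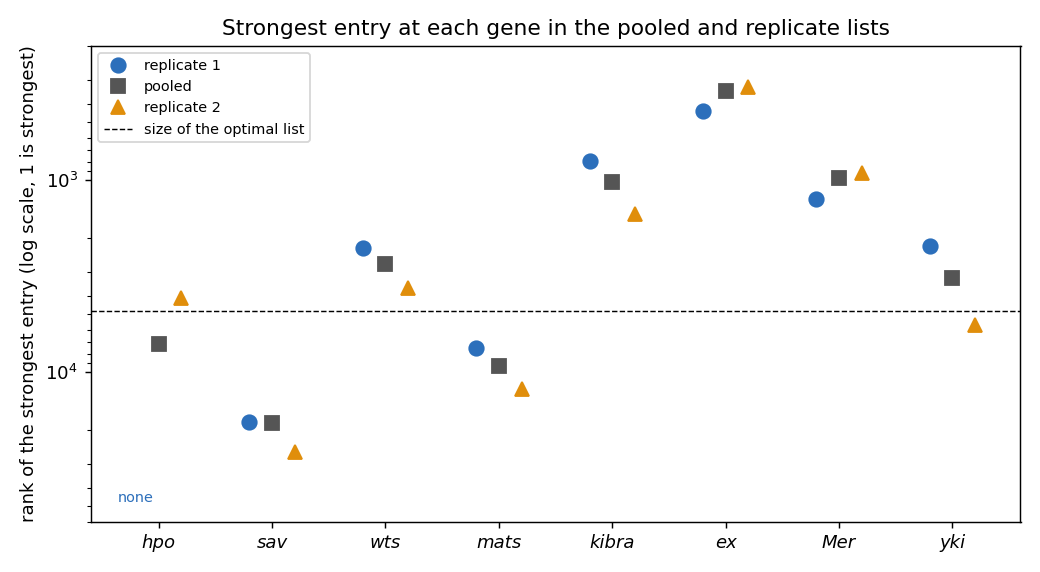
Rank of the strongest entry of each Hippo gene (log scale, strongest at the top) in the list of replicate 1 (circles), the pooled list (squares) and the list of replicate 2 (triangles); the dashed line is at rank 4809, the size of the optimal list. The entries of ex, kibra, Mer and wts lie above the line in all 3 lists, those of sav and mats below it, yki is below it in replicate 2, and hpo is above it in replicate 2 and has none in replicate 1.

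The number of genes with a summit was the same in each replicate, but not the genes. Among the 4809 strongest entries of replicate 1, summits lay at wts, kibra, ex, Mer and yki, and among those of replicate 2 at hpo, wts, kibra, ex and Mer. Over all protein-coding genes 22.8% held a summit in replicate 1 and 23.1% in replicate 2. So 4 of the 8 genes held a summit in both, a share that was not counted over all protein-coding genes. With all 30000 entries, 7 of the 8 genes had an entry in replicate 1, where 61.2% of all protein-coding genes did, and all 8 in replicate 2, where 64.5% did. All 8 had an entry in the pooled list, where 62.0% did. At the highest −log10 q of the pooled list the genes were the same 5 as in the optimal list, beside 28.2% of all protein-coding genes.

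Each of the 17 optimal summits had an entry within 200 bp in both replicate lists, as 97.3% of all 4809 optimal peaks had. Both entries were among the 4809 strongest of their list for 10 of the 17 (58.8%), beside 61.7% of all optimal peaks. Of the 17, 13 (76.5%) ranked higher in replicate 1, beside 51.1% of the 4680 optimal peaks with both entries. The 4 that ranked higher in replicate 2 were the 2 highest peaks of ex, that of Mer, and 1 of kibra. The higher rank number was 1.80 times the lower in the median of the 17 and 1.88 times over all optimal peaks, a similar difference between replicates. The largest ratio was 19.4, at the weaker of the close pair in intron 3 of ex.

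**Figure D4:**
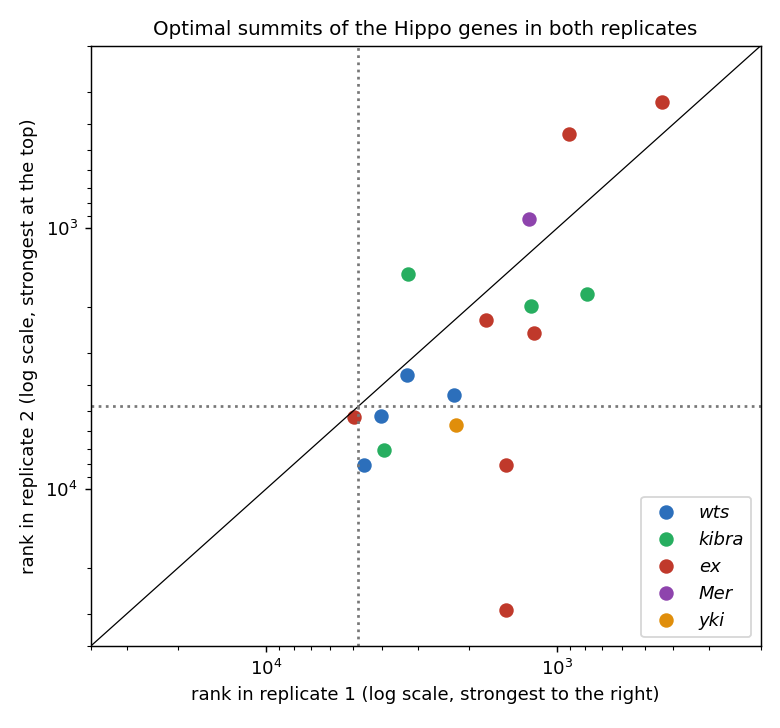
Rank of the 17 optimal summits in replicate 1 (horizontal) and replicate 2 (vertical), both on log scales with the strongest to the right and at the top, coloured by gene; the line marks equal ranks and the dotted lines rank 4809. Of the 17 points, 13 lie below the line of equal ranks, and the lowest point, an ex summit, has rank 1502 in replicate 1 and 29095 in replicate 2.

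The optimal summits at these genes lay mostly in introns. Of the 17, 13 (76.5%) lay in an intron, 3 (17.6%) outside the gene and 1 (5.88%) in an exon. Over the 5525 pairs of an optimal summit and a protein-coding gene whose extended span holds it, 50.9% were in an intron of every transcript there, 35.7% outside the gene, 10.1% in an exon and 3.24% in an intron of some transcripts only. A TSS of the gene itself lay within 1 kb of 4 of the 17 summits (23.5%), beside 53.0% of all pairs. Among the 4809 strongest entries of each replicate, it was 3 of 14 in replicate 1 (21.4%, beside 52.1% of all pairs) and 5 of 13 in replicate 2 (38.5%, beside 54.1%). Most of the 17 summits lay at ex, kibra and wts. These genes are 17.5, 26.6 and 17.0 kb long, beside a median of 2.17 kb over all protein-coding genes. The pairs were not matched for gene length, so its part in the intron and TSS shares was not tested. The optimal 4 were at ex, Mer and yki, so 3 of the 8 genes had an optimal summit within 1 kb of their own TSS. Over all protein-coding genes 17.0% did. The summit counted for yki lay nearer to the TSS of Gpat4. The median signal value of the 17 summits was 210.2, beside 200.4 over all optimal peaks. The strongest peaks of the 5 genes had a median of 339.6, beside 231.1 over all genes with a summit. A gene with more summits has more chances of a high strongest peak, and the genes were not matched for number of summits.

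The DNA at the summits was searched for 5 motifs on both strands, within 50 bp of each summit. GGAATG, the core of the sites of Scalloped and other TEAD proteins, was at 0 of the 17 summits, 3.76% of all optimal summits and 4.83% of windows 500 bp to either side. GAGAGA, bound by the GAGA factor, was at 0 of the 17 and 7.88% of all. TATCGA of DREF (3.56% of all) and the E-box CACGTG (0.915% of all) were also at 0 of the 17. The counts speak only of these letters in these windows. TACTAA was at 2 of the 17 (11.8%), both in intron 1 of kibra, and at 5.45% of all optimal summits and 3.63% of the flanks. The motif was picked from these same data, so the difference between summits and flanks is no support for it.

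At the stronger kibra summit TACTAA occurred at 2 places, separated by AG, as the sequence above shows. Of all 4809 optimal summits, 17 (0.354%) had 2 or more copies within 50 bp, and of 9618 flanks, 17 (0.177%). This count was chosen after the sequence was seen. The windows at these genes held from 23.8% G and C, at that kibra summit, to 52.5%, at Mer, beside 11.9% to 73.3% over all optimal summits. The median was 37.6% in both sets. The other kibra window with TACTAA held 25.7%, so both windows with this motif lay below the median in G and C.

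Genes that act around the pathway held summits in every role listed. Of 52 genes listed by role, 29 (55.8%) held an optimal summit. Long genes weigh in this count: 51 of them are protein-coding, with a median length of 11.4 kb beside 2.17 kb over all protein-coding genes, and the class shares by length sum to 21.1 genes. The list was written with earlier results of these data known and was not tested.

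Of 17 upstream regulators 9 held a summit, beside 23.1% of all protein-coding genes and a sum of length class shares of 6.96 genes. The highest was at dachs, the myosin that acts against Warts, with a signal value of 1078.1 (rank 83) and 403 bp from a TSS of dachs. Its entries ranked 128 in replicate 1 and 56 in replicate 2. The cadherin genes ds (678.8, rank 240) and ft (371.3, rank 867) had summits 581 and 526 bp from their TSSs, and the palmitoyltransferase gene app, of the same branch, had one at 404.1 (rank 732). The polarity gene scrib had 485.0 (rank 515). The summit counted for Pez (333.7, rank 1065) lay outside the gene, 719 bp from the TSS of Pez and 435 bp from that of Cpr. The 8 without a summit were fj, which modifies Fat and Dachsous, Dlish, a partner of Dachs, the LIM protein genes jub and Zyx, the kinase gene Tao, Schip1, and the polarity genes dlg1 and l(2)gl.

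Of 12 partners of the kinase module 7 held a summit, beside a sum of length class shares of 4.53, and none was among the 1000 strongest peaks. The count was 5 among the 4809 strongest entries of replicate 1 and 8 among those of replicate 2. Over all protein-coding genes the shares were 22.8% and 23.1%, and length class shares were summed for the optimal list only. The highest were at trc (296.4, rank 1299), which encodes a kinase related to Warts, msn (290.1, rank 1355), a kinase that can act on Warts, and Strip (265.6, rank 1564), a part of a complex that restrains Hippo. The summit counted for Strip lay nearer to the TSS of Gtpx, at 214 bp. That counted for mts lay outside the gene, 452 bp from the TSS of mts and 48 bp from that of Rack1.

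Of 9 nuclear partners of Yorkie 5 held a summit, close to the 4.16 to which their length class shares sum, and sd, the gene of Scalloped itself, held none. The count was 4 in replicate 1 and 7 in replicate 2, where 22.8% and 23.1% of all protein-coding genes held a summit. No length class sum was made for either replicate. The highest were at Trl, which encodes the GAGA factor (1014.3, rank 94), Tgi, which competes with Yorkie for Scalloped (718.1, rank 210), and hth, a homeodomain gene that works with Yorkie in the eye (501.5, rank 476). Each kept a high rank in both replicates, with 66 and 162 for Trl, 208 and 251 for Tgi, and 508 and 554 for hth in replicates 1 and 2.

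Of 13 known targets of Yorkie 7 held a summit, and the length class shares of the 12 that are protein-coding sum to 5.05. The highest were at Myc, a growth regulator (558.1, rank 372), Diap1, an inhibitor of cell death (554.4, rank 376), and dlp, a glypican gene (518.0, rank 441). Diap1 held 7 summits within 12.6 kb, as many as ex. The cell cycle gene E2f1, named with dally after the values were seen, held 13 summits over 40.6 kb, the highest at 294.8 (rank 1309). CycE, the microRNA gene mir-ban, Ilp8, upd1, upd2 and upd3 held none. Both replicates had the peaks of Myc (ranks 368 and 446) and Diap1 (327 and 660), whereas the strongest at dally (210.3, rank 2229) ranked 27240 in replicate 1 and 1245 in replicate 2. The gene melt, which opposes wts in R8 photoreceptors, held 1 summit in its 5′ UTR, 548 bp from the TSS. Its signal value was 412.8 (rank 698), with ranks of 787 and 727 in replicates 1 and 2, and was thus higher than any peak of wts.

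**Figure D5:**
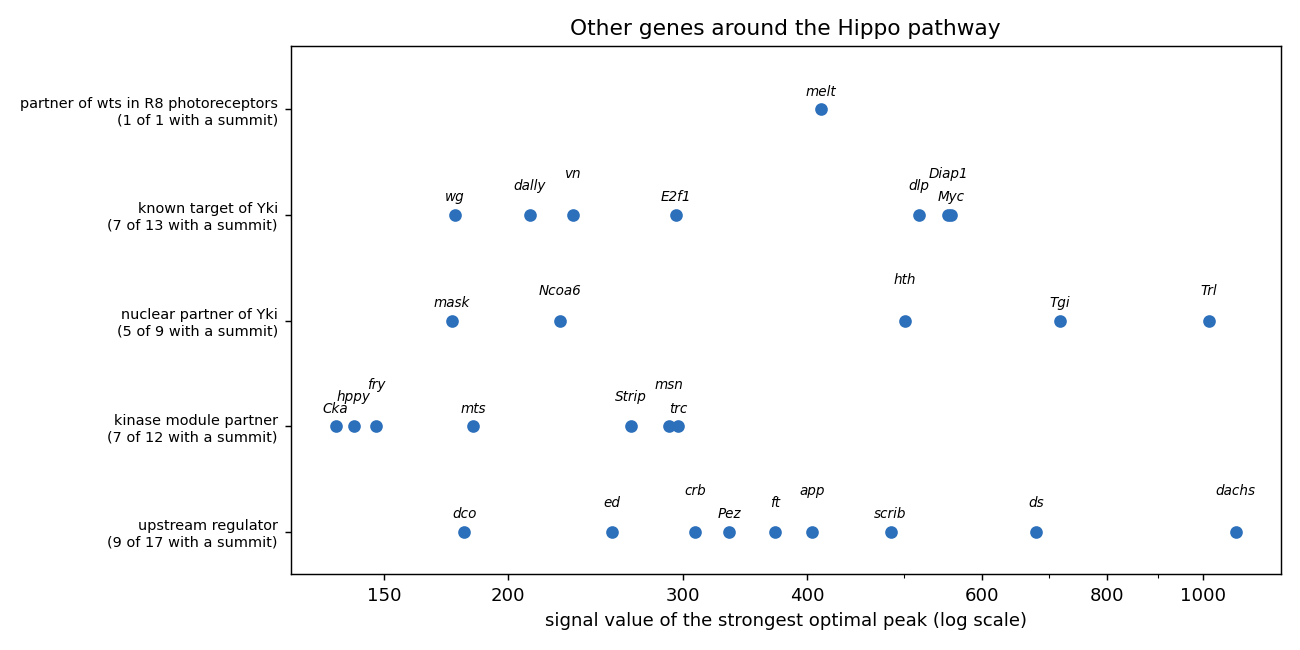
Signal value (log scale) of the strongest optimal peak at each gene of the wider pathway that held one, in rows by role, with the number of genes that did. The highest values are at dachs (1078.1) and Trl (1014.3), and no partner of the kinase module lies above 296.4.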

How the data were processed

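ChIP-seq of GFP-tagged Glass from whole pupae was analysed from 4 deposited peak lists for dm6: 1 for each of 2 replicates, 1 pooled, and an optimal list thresholded by the irreproducible discovery rate. Each replicate list came from that replicate's alignment and a control alignment shared by both, and the optimal list from the other 3 lists, per the text deposited with them. Peak height is the authors' signal value, and significance the −log10 q value that the authors deposited. The aligner, peak caller and read numbers are not given in the sources used here. The depth is therefore unknown, and values carry no interval. The p-value column held no value.

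Summits were counted in gene spans of Ensembl release 115 for BDGP6.54, which is dm6, extended by 1 kb; positions are 1-based, and all peaks lay within the arms of the NCBI sequence. Within a list, entries were ranked by signal value. Summits within 200 bp matched between lists. Scripts ran in Python 3.11.15, and gene counting was checked on planted summits. Genes named are the 8 members, and listed genes with a peak among the 1000 strongest and up to 3 per list otherwise. Genes with the nearest protein-coding TSS to an optimal summit of a member are also named. Others were chosen after their values were seen. The members and lists were chosen with earlier results of these data known. There is 1 group, so no test was made. Other spans, thresholds, distances and each replicate alone were tried.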

Additional observations from a re-analysis of the deposited data

How the results depend on the processing

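The 5 genes with an optimal summit became 3 when only summits within 1 kb of the gene's own TSS counted (17.0% of all protein-coding genes), 3 with the 2404 strongest optimal peaks (13.6%) and 8 with all pooled entries (62.0%). There were 4 without extension of the span (12.8%), 6 with 5 kb (41.3%) and 5 with either replicate alone (22.8% and 23.1%), with hpo in place of yki in replicate 2. The 17 summits became 4 near the TSS, 9 among the 2404 strongest and 62 with all pooled entries, with 13 to 14 in the list of either replicate alone, and 16 with overlapping peaks counted once, a choice made after seeing the data. The 29 genes of the wider lists became 22 near the TSS, 22 among the 2404 strongest and 48 with all pooled entries. There were 27 without extension and 32 with 5 kb, with a range of 26 to 34 over the lists of single replicates. The shares of all protein-coding genes are those given above for each setting. They are not matched for length, and length class shares were summed for the optimal list only. Among the 17 summits, 14 had an entry within 100 bp in both replicates, and for 10 both entries were among the 4809 strongest. The share within 1 kb of the own TSS, 23.5%, was 21.4% to 38.5% in the replicates, and 17.6% and 29.4% with 500 bp and 2 kb. The strongest entry of each replicate ranked 328 to 437 at ex, 918 to 1251 at Mer and 791 to 1495 at kibra. It ranked 2260 to 3645 at wts and 2215 to 5685 at yki. At kibra and wts the replicates had different summits as their strongest. The highest optimal summit ranked 791 and 1779 in replicates 1 and 2 at kibra, and 2260 and 4346 at wts. Within 100 bp of the summits GGAATG was at 1 and GAGAGA at 2 of the 17, in place of 0. The cause of these changes was not tested beyond the fewer or more peaks that each choice leaves. No paired analysis was possible because there is 1 group. With 2 replicates of unknown depth, an absent entry, as for hpo in replicate 1, cannot be told apart from a weak one.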
